A study of Mus musculus with 8 samples.

Results

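The genes described here were 10 components of the pathways by which leukemia inhibitory factor (LIF) and bone morphogenetic proteins (BMPs) act on mouse embryonic stem cells (mESCs). They were chosen by name, as *Lifr*, *Il6st*, *Jak1*, *Stat3* and *Socs3* for LIF-STAT3 and *Bmp4*, *Id1*, *Id2*, *Id3* and *Smad7* for BMP-ID, and all 10 were found among the 55385 genes of the count table. RNA sequencing (RNA-Seq) was performed on R1 mESCs, an established mouse line labelled wild type, after lentiviral knockdown (KD) of *Eftud2*, a GTPase of the U5 snRNP of the spliceosome. The groups were shRNA1 (3 libraries), a hairpin against the 3′ UTR of *Eftud2*, shRNA2 (3 libraries), a hairpin against its coding sequence, and a non-targeting hairpin, nt-shRNA (2 libraries). All cells were grown without feeders in N2B27 medium with LIF and the 2i inhibitors of MEK and GSK3. The coating was poly-L-ornithine and laminin, with fibronectin given as an alternative in the study's methods. Cells were infected for 2 days and selected with puromycin for 3 days. Each library therefore came from a pool of infected cells and not from a clone. The culture labels name added LIF but no added BMP.

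LIF binds a receptor made of LIFR and gp130, the product of *Il6st*. The receptor-bound kinase JAK1 then phosphorylates STAT3, which enters the nucleus and activates genes of naive pluripotency, and also *Socs3*, whose product inhibits the receptor complex. BMP4 acts through SMAD1 and SMAD5 on the *Id* genes, whose products bind and block basic helix-loop-helix factors that drive differentiation, and SMAD7 is an inhibitory SMAD that blocks both the BMP and the Nodal-TGFβ receptors. LIF and BMP together are known to hold mESCs in self-renewal in serum-free culture.

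Libraries held 19569525 to 29871048 counts, and 3 counts corresponded to 0.105 to 0.148 CPM, the count scaled to a common library size with TMM factors. *Eftud2* itself was at 262 and 256 CPM with nt-shRNA, at 232, 229 and 225 with shRNA1, and at 198, 202 and 235 with shRNA2. All KD libraries were therefore below both controls, and edgeR put shRNA1 at -0.18 against nt-shRNA on the log2 scale (adjusted p = 0.0514) and shRNA2 at -0.29 (adjusted p = 0.00122, quasi-likelihood test with Benjamini-Hochberg adjustment over 17445 genes, as for all adjusted p below). The value with shRNA1 passed in 6 of 16 alternatives (adjusted p from 0.0206 to 0.498) and was -0.065 with library size alone in place of TMM. The difference between the hairpins in *Eftud2* did not pass the test (log2 difference -0.11, adjusted p = 0.164), but passed without shRNA2 replicate 3 (-0.19, adjusted p = 0.0127). By qPCR, a different measure, the study reported a larger KD with each hairpin, and by western blot less EFTUD2 protein. The 6 mESC markers (*Pou5f1*, *Sox2*, *Nanog*, *Zfp42*, *Esrrb*, *Sall4*) summed to 3253 to 3347 CPM with nt-shRNA, 3593 to 3716 with shRNA1 and 4227 to 4396 with shRNA2. Within this sum *Nanog* and *Zfp42* rose with both hairpins, *Esrrb* and *Sall4* rose with shRNA2, and *Pou5f1* fell with both (-0.35 and -0.29). The 6 fibroblast markers summed to 4.60 to 4.99 CPM with nt-shRNA, 6.52 to 7.34 with shRNA1 and 6.28 to 7.57 with shRNA2; *Col1a2* rose with both (1.27 and 1.66), *Col1a1* and *Thy1* did not pass, and *Col3a1*, *Lum* and *Postn* had at most 2 counts in any library. In such bulk libraries, fewer cells that express a gene and less RNA per cell cannot be told apart.

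With shRNA1, 1 of the 10 genes rose and 4 fell, and 5 did not pass the test. Without nt-shRNA replicate 1, 2 fell, and the number that rose was 2 without shRNA1 replicate 3 and 3 without shRNA2 replicate 2 or 3. The share of all 17445 tested genes called was 13.8% higher and 17.1% lower (30.9% in either direction). With shRNA2, 4 rose and 3 fell, beside 27.2% of all genes called higher and 28.7% called lower (55.9% in either direction). Libraries of the KD and control groups did not overlap for 8 of the 10 genes with shRNA1, beside 56.8% of all genes, and for 7 of 10 with shRNA2, beside 71.4%. The median log2 fold change of the 10 genes was -0.09 with shRNA1 and 0.09 with shRNA2, and over all genes it was -0.01 and 0.00. The LIF-STAT3 genes that passed with shRNA1 all fell, and calls in both directions occurred in both pathways with shRNA2. Both comparisons share the same 2 control libraries.

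**Figure D1:**
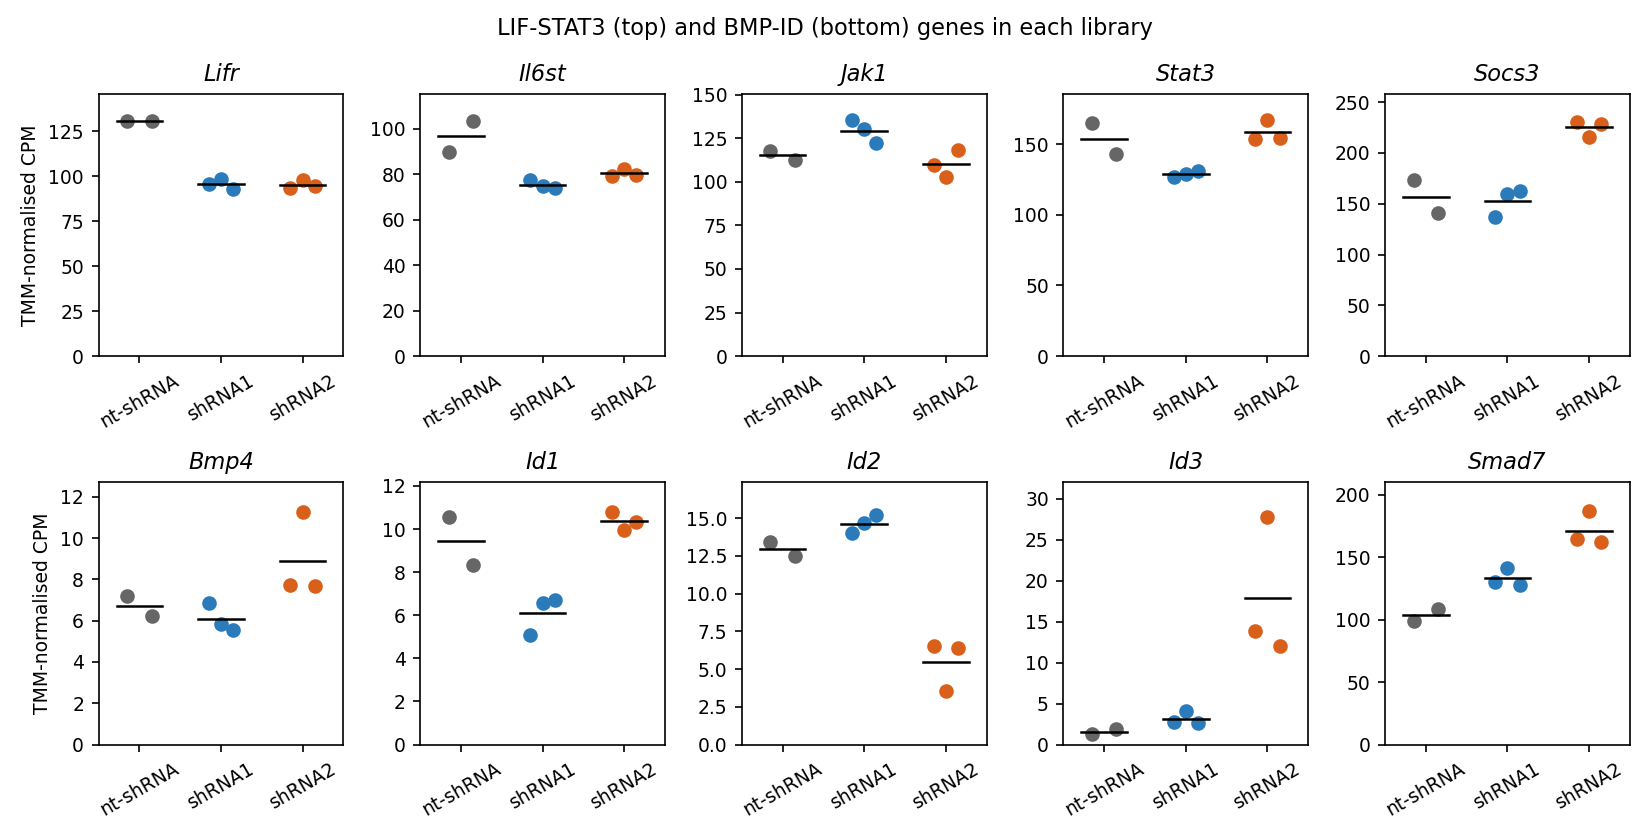
Level of each gene in each library, in TMM-normalised CPM on a linear axis that starts at 0; points are libraries and lines are group means (2 nt-shRNA, 3 shRNA1 and 3 shRNA2 libraries). *Lifr* and *Il6st* were lower in every KD library than in both controls, *Socs3* and *Id3* were highest with shRNA2, and *Id2* was lowest with shRNA2.

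Both receptor chains fell with both hairpins. *Lifr* (chr15:7090614-7197489, plus strand), the LIF-binding chain, was at 131 CPM in both nt-shRNA libraries, at 95.6, 98.4 and 93.1 with shRNA1, and at 93.4, 98.1 and 94.5 with shRNA2. Every KD library was thus below the controls, and the KD groups covered the same range. The log2 fold change was -0.45 (SE 0.0587, adjusted p = 1.4e-05) with shRNA1 and -0.46 (SE 0.0588, adjusted p = 2.5e-06) with shRNA2. Between the hairpins the difference was -0.00497 (SE 0.0539, adjusted p = 0.954), the smallest of the 10 genes.

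*Il6st* (chr13:112464070-112510086, plus strand), which encodes the signal-transducing chain gp130, was at 89.8 and 104 CPM with nt-shRNA, at 77.6, 75.03 and 73.9 with shRNA1, and at 79.2, 82.6 and 79.8 with shRNA2. Again no KD library reached the lower control. *Il6st* fell by 0.36 on the log2 scale with shRNA1 (SE 0.0677, adjusted p = 5.4e-04) and by 0.26 with shRNA2 (SE 0.0678, adjusted p = 0.00269). The call with shRNA2 was lost without nt-shRNA replicate 2, the higher control (-0.16, adjusted p = 0.129). The hairpins did not differ past the threshold (0.09, SE 0.062, adjusted p = 0.256).

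*Jak1* (chr4:101152367-101265282, minus strand), the kinase bound to gp130, was at 117 and 113 CPM with nt-shRNA, at 135, 131 and 122 with shRNA1, and at 109, 103 and 118 with shRNA2. The shRNA1 libraries lay above the controls and the shRNA2 libraries overlapped them. Neither change passed the test, with log2 fold changes of 0.17 (SE 0.0678, adjusted p = 0.0666) and -0.07 (adjusted p = 0.433). The value with shRNA1 passed without shRNA1 replicate 3 (0.21, adjusted p = 0.0238), and also when shRNA2 replicate 2 or 3, which belong to neither group but share the estimate of the spread, was left out (adjusted p = 0.0364 and 0.0444). Over all 16 alternatives it passed in 6, and it was largest with library size alone in place of TMM (0.28, adjusted p = 0.00432). *Jak1* was lower with shRNA2 than with shRNA1 (-0.23, SE 0.061, adjusted p = 0.00601).

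*Stat3* (chr11:100885098-100939540, minus strand), the transcription factor of the pathway, was at 165 and 143 CPM with nt-shRNA, at 127, 129 and 131 with shRNA1, and at 154, 167 and 154 with shRNA2. All shRNA1 libraries were below the controls, whereas the shRNA2 libraries overlapped them. *Stat3* fell with shRNA1 (-0.25, SE 0.067, adjusted p = 0.00725), a call that was lost without nt-shRNA replicate 1 (-0.15, adjusted p = 0.247). With shRNA2 the log2 fold change was 0.04 (SE 0.0672, adjusted p = 0.619), and it was -0.06 without nt-shRNA replicate 2. *Stat3* was higher with shRNA2 than with shRNA1 (0.30, SE 0.0606, adjusted p = 9.9e-04).

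*Socs3* (chr11:117966079-117970047, minus strand), the feedback inhibitor, was at 173 and 140.4 CPM with nt-shRNA, at 137, 159.7 and 162 with shRNA1, and at 230.3, 216 and 229 with shRNA2. The shRNA2 libraries stood above all others, and the shRNA1 libraries overlapped the controls. *Socs3* rose 1.44-fold with shRNA2 (log2 0.52, SE 0.0837, adjusted p = 3.3e-05) and gave -0.04 with shRNA1 (SE 0.0831, adjusted p = 0.784). This small value with shRNA1 turned positive without nt-shRNA replicate 1 (0.12) or without shRNA1 replicate 1 (0.04). The difference between the hairpins was 0.56 (SE 0.0744, adjusted p = 2.1e-05).

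The sequence before the *Socs3* start is shown because *Socs3* is a STAT3 target and was the only LIF-STAT3 gene of the 5 that rose with either hairpin. For 8 of the 10 genes, RefSeq start sites with a promoter sequence were used (9 windows, build GRCm38.p6). The 250 bases before each start were searched for TTCNNNGAA, the palindrome STAT dimers bind, and for GGCGCC, a GC-rich palindrome BMP SMADs bind. Each motif reads the same on both strands. *Socs3* held TTCTTAGAA, whose first base lies 154 bases before the start, and it was the only one of the 9 windows with a match to TTCNNNGAA, which 7.02% of all 32851 promoter windows held. The stretch printed is chr11:117969452-117969616 on the minus strand, 165 bases that lie between annotated *Socs3* exons of the count table's annotation, with the match in capitals.
Socs3: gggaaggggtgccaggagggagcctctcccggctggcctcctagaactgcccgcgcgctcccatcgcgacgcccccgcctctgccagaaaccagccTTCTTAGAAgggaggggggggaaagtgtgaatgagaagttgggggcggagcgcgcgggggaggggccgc

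Closer to the start, in a part of the window that a *Socs3* exon covers, there was also a GGCGCC 61 bases before the start. Windows of *Lifr*, *Jak1* and *Id2* held GGCGCC as well, and 9.59% of all windows did. No window was found for *Id1*, and windows on the chromosome of *Smad7* were left out, so neither gene was searched. A match is a description of the letters and was not tested as a binding site.

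*Bmp4* (chr14:46383520-46390669, minus strand), which encodes the ligand, was at 7.20 and 6.24 CPM with nt-shRNA, at 6.86, 5.82 and 5.53 with shRNA1, and at 7.72, 11.3 and 7.66 with shRNA2. Replicate 2 of shRNA2 stood well above the other libraries. *Bmp4* passed the test with shRNA2 (0.41, SE 0.167, adjusted p = 0.0455) and not with shRNA1 (-0.15, SE 0.171, adjusted p = 0.543). Without shRNA2 replicate 2 the value was 0.20 (adjusted p = 0.274). The call was also lost without nt-shRNA replicate 1 (0.51, adjusted p = 0.0612) or 2 (0.30, adjusted p = 0.255), and without shRNA1 replicate 1 or 2 (both 0.41, adjusted p = 0.0501 and 0.0549). The difference between the hairpins (0.55, SE 0.153, adjusted p = 0.00861) did not pass without shRNA2 replicate 2 either (0.35, adjusted p = 0.078). *Bmp4* shared 3.96% of its exon bases with *Gm15217* on the other strand, and the counting used no strand.

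The *Id* genes, the classic targets of BMP-SMAD signaling, did not move together. *Id1* (chr2:152736251-152737410, plus strand) was at 10.6 and 8.33 CPM with nt-shRNA, at 5.10, 6.56 and 6.70 with shRNA1, and at 10.8, 9.97 and 10.3 with shRNA2. It was lower in all shRNA1 libraries than in any other library, and the shRNA2 libraries overlapped the controls. *Id1* fell 1.54-fold with shRNA1 (-0.62, SE 0.144, adjusted p = 0.00285), and this call was lost without nt-shRNA replicate 1 (-0.44, adjusted p = 0.0904). With shRNA2 the value was 0.13 (SE 0.139, adjusted p = 0.426), or -0.03 without nt-shRNA replicate 2. The hairpins differed by 0.75 (SE 0.132, adjusted p = 2.5e-04).

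*Id2* (chr12:25093799-25097140, minus strand) was at 13.4 and 12.5 CPM with nt-shRNA, at 13.98, 14.7 and 15.2 with shRNA1, and at 6.56, 3.52 and 6.43 with shRNA2. Every shRNA2 library was below all the others, and replicate 2 was the lowest. *Id2* fell 2.36-fold with shRNA2 (-1.24, SE 0.168, adjusted p = 4.7e-06) and did not pass with shRNA1 (0.18, SE 0.155, adjusted p = 0.415). Between the hairpins the difference was -1.41 (SE 0.155, adjusted p = 3.2e-06), and *Id2* was the only *Id* gene that was lower with shRNA2 than with shRNA1 past the threshold.

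*Id3* (chr4:136143497-136145755, plus strand) was at 1.31 and 1.85 CPM with nt-shRNA (35 and 53 counts), at 2.71, 4.15 and 2.60 with shRNA1 (60, 84 and 73 counts), and at 13.9, 27.8 and 11.98 with shRNA2 (298, 616 and 261 counts). The groups did not overlap, and shRNA2 replicate 2 was again the extreme library. *Id3* rose 11.2-fold with shRNA2 (3.49, SE 0.327, adjusted p = 4.6e-08), the largest change of the 10 genes. With shRNA1 it was 1.95-fold higher (0.97, SE 0.379), which did not pass the test (adjusted p = 0.0594) but did so in 6 of 16 alternatives, with adjusted p from 7.6e-05 to 0.294 over all 16. It passed when shRNA2 replicate 2 or 3, which belong to neither group of this comparison, was left out (both 0.97, adjusted p = 0.00318 and 0.0238). *Id3* was 5.75-fold higher with shRNA2 than with shRNA1 (2.52, SE 0.259, adjusted p = 1.7e-06).

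The sequence before the *Id2* start is shown because *Id2* was the one of the 3 chosen *Id* genes that fell with shRNA2, and GGCGCC is in capitals; its first base lies 231 bases before the start. The stretch is chr12:25096254-25096342 on the minus strand (GRCm38.p6), 89 bases between annotated *Id2* exons, since exons cover the other 161 of the 250 bases. The window of *Id3* held neither motif and lay wholly within an annotated *Id3* exon, so it is not printed.
Id2: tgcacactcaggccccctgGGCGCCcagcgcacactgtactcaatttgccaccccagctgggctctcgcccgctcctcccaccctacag

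The make-up of the *Id* transcripts was compared on a scale per exon length (FPKM, the CPM divided by the exon length in kilobases), and *Id4*, the remaining family member, was added from the BMP-ID list. The 4 genes summed to 16.8 and 14.6 FPKM with nt-shRNA, to 12.3, 14.9 and 14.02 with shRNA1, and to 20.4, 26.2 and 18.8 with shRNA2. The sum was thus higher in every shRNA2 library than in any other, and the shRNA1 libraries overlapped the controls. *Id1* made up 51.8% ± 3.63 of the sum with nt-shRNA (SD, n = 2), 38.3% ± 2.78 with shRNA1 (SD, n = 3) and 41.9% ± 7.95 with shRNA2 (SD, n = 3). The share of *Id2* was 34.0% ± 1.66, 43.9% ± 3.10 and 10.9% ± 4.69, and that of *Id3* was 5.72% ± 1.91, 12.7% ± 2.64 and 44.2% ± 13.0. *Id4* made up 8.47%, 5.09% and 3.07%. *Id3* was thus the least abundant of the family with nt-shRNA, and with shRNA2 its share ranged from 35.5% to 59.1%, whereas that of *Id2* ranged from 5.50% to 14.002%. These shares are a description, with no test.

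**Figure D2:**
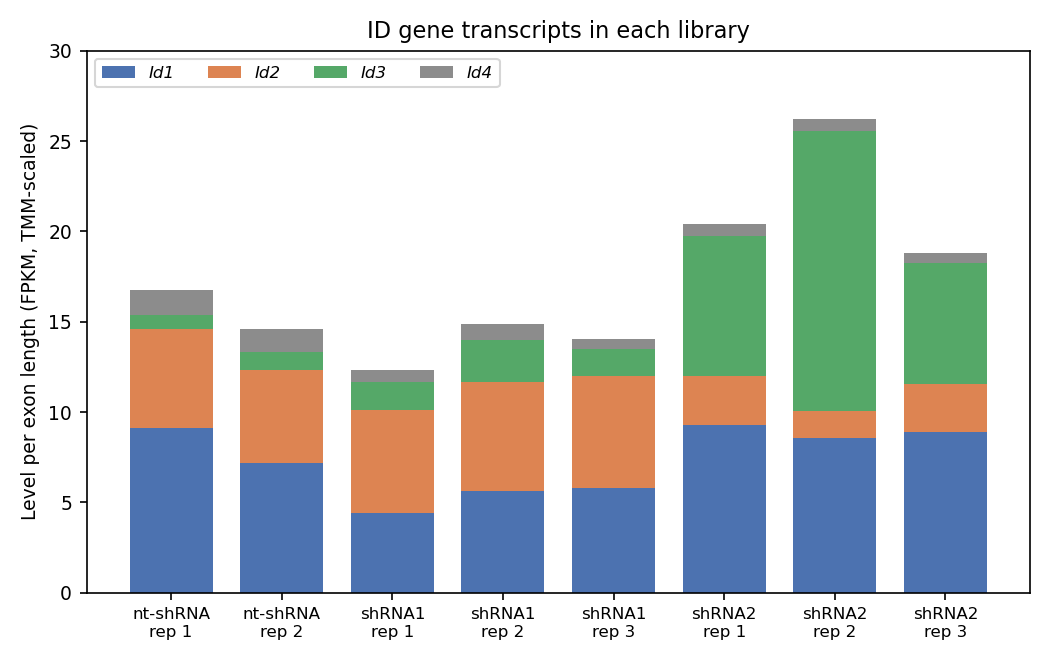
Level per exon length (FPKM with TMM scaling) of *Id1*, *Id2*, *Id3* and *Id4* in each library, stacked so that the bar height is their sum. Bars reach 14.6 to 16.8 with nt-shRNA, 12.3 to 14.9 with shRNA1 and 18.8 to 26.2 with shRNA2, where the *Id3* segment is wide and the *Id2* segment is narrow.

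The summed level of the neural markers was also highest in the shRNA2 libraries, but not that of each marker. The 6 markers summed to 20.7 to 24.3 CPM with nt-shRNA, 31.3 to 33.1 with shRNA1 and 44.5 to 64.0 with shRNA2. *Neurod1*, a proneural factor, was at 0.262 and 0.0697 CPM with nt-shRNA, at 2.07, 1.83 and 1.75 with shRNA1, and at 7.12, 12.5 and 6.61 with shRNA2. In the nt-shRNA libraries 3 counts equal 0.112 and 0.105 CPM, so *Neurod1* was near the floor there and no size of change is read. *Tubb3*, a neuronal tubulin, rose by 0.62 and 1.58 on the log2 scale. *Sox1* (-0.10 and -0.21) and *Pax6* (-0.57 and -0.42), markers of neural progenitors, did not pass with either hairpin, *Map2* passed with shRNA1 (0.84) and not with shRNA2 (0.37) and was lower with shRNA2 than with shRNA1 (-0.47, adjusted p = 0.0113), and *Neurog1* had at most 5 counts in any library. As for *Id3*, shRNA2 replicate 2 was the highest library for *Neurod1* and *Tubb3*. The summed trophoblast markers were lower, at 228 to 234 CPM with nt-shRNA, 172 to 202 with shRNA1 and 138 to 155 with shRNA2. Of these the keratins *Krt7* and *Krt18* fell with both hairpins and *Krt8* with shRNA2. *Elf5* and *Tfap2c* were not called with either hairpin, and *Cdx2* had at most 11 counts. The primitive endoderm markers summed to 23.2 to 23.7 CPM, 22.0 to 26.1 and 17.6 to 19.5, and the mesoderm markers to 26.5 to 28.4, 27.2 to 29.8 and 26.2 to 32.9. Of the 4 tested primitive endoderm markers, 1 fell with shRNA2, and 3 were lower with shRNA2 than with shRNA1. Of the 5 tested mesoderm markers, 1 rose and 1 fell with shRNA1, and 2 rose and 1 fell with shRNA2. Over all genes 30.9% were called with shRNA1, 55.9% with shRNA2 and 35.6% between the hairpins. Nothing particular to a cell type is read from these few calls. The part of these markers in the results for the *Id* genes was not tested.

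*Smad7* (chr18:75367529-75395935, plus strand), the inhibitory SMAD, was at 99.2 and 108 CPM with nt-shRNA, at 131, 142 and 128 with shRNA1, and at 164, 187 and 162 with shRNA2. The groups formed 3 steps with no overlap. *Smad7* rose with both hairpins, by 0.36 with shRNA1 (SE 0.0726, adjusted p = 8.9e-04) and by 0.72 with shRNA2 (SE 0.073, adjusted p = 1.2e-07), and the difference between the hairpins was 0.36 (SE 0.0641, adjusted p = 3.0e-04). In the edgeR fit over all 8 libraries, *Smad7* was the only one of the 10 genes that rose past the threshold with both hairpins. In that fit *Lifr* and *Il6st* were the only ones that fell with both. *Id3*, which rose with shRNA2, also passed with shRNA1 in 6 of 16 alternatives.

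**Figure D3:**
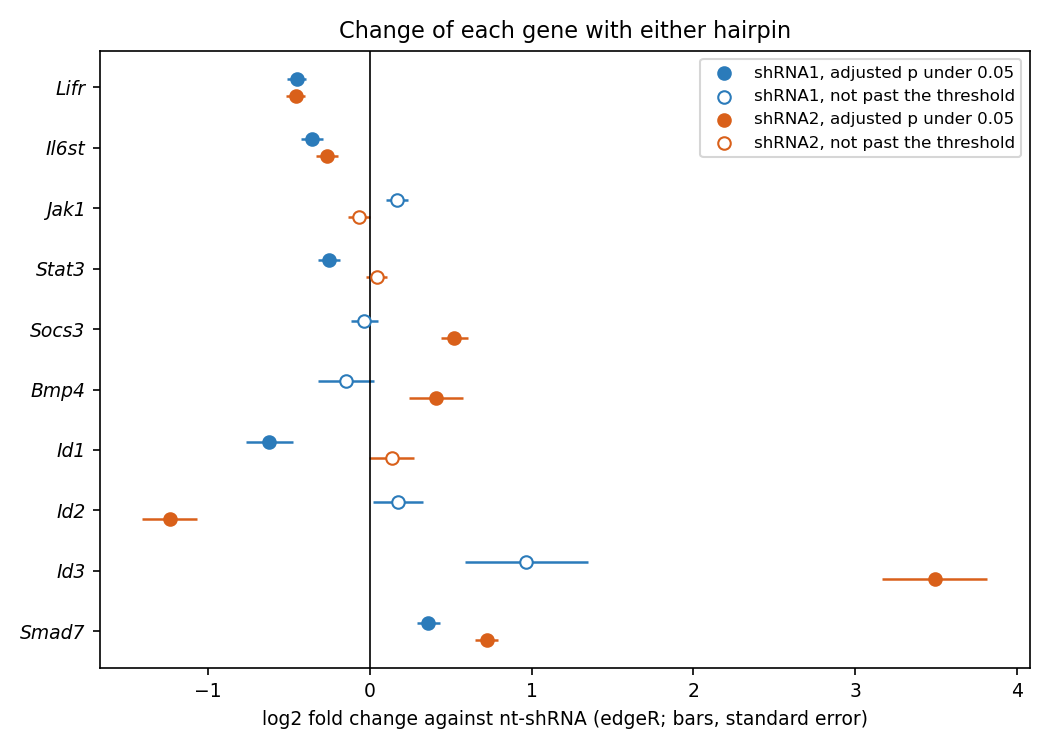
Log2 fold change of each gene against nt-shRNA from edgeR, with shRNA1 in blue and shRNA2 in orange; bars are standard errors, and filled points passed an adjusted p of 0.05. *Lifr* lies at -0.45 and -0.46, while *Id2* (0.18 and -1.24) and *Id3* (0.97 and 3.49) lie far apart between the hairpins.

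Compared directly, the hairpins differed for 8 of the 10 genes. With shRNA2, 6 were higher than with shRNA1 (*Stat3*, *Socs3*, *Bmp4*, *Id1*, *Id3* and *Smad7*) and 2 were lower (*Jak1* and *Id2*), beside 16.9% of all tested genes called higher and 18.7% called lower (35.6% in either direction). Libraries of the hairpins did not overlap for 9 of the 10 genes, beside 47.8% of all genes. The receptor chains *Lifr* and *Il6st* were the 2 genes that did not pass.

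Levels per exon length set the 10 genes in order. In nt-shRNA libraries the mean was 54.3 FPKM for *Socs3*, 22.9 for *Smad7*, 16.1 for *Stat3*, 15.9 for *Jak1*, 12.1 for *Lifr*, 8.71 for *Il6st*, 8.15 for *Id1*, 5.32 for *Id2*, 2.99 for *Bmp4* and 0.882 for *Id3*. Neighbours whose libraries overlapped were *Stat3* with *Jak1* and *Il6st* with *Id1*. With shRNA1, *Jak1* (17.9 FPKM) stood above *Stat3* (13.5) and *Id2* (5.997) overlapped *Id1* (5.28). With shRNA2, *Id3* (9.98 FPKM) was in place 5 and *Id2* (2.26) last, and *Stat3* (16.6), *Jak1* (15.2), *Id3*, *Id1* (8.93) and *Lifr* (8.85) formed a run in which each overlapped the next. The place of *Id3* rested on shRNA2 replicate 2 (15.5 FPKM), and in the other libraries, at 7.74 and 6.69 FPKM, it lay below every shRNA2 value of *Id1* and *Lifr*.

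Further genes of LIF-STAT3 signaling came from a list of 50 genes that excluded the 5 above, of which 47 had enough counts to test. With shRNA1, 8 rose and 12 fell (42.6% of those tested, beside 30.9% of all genes), and with shRNA2, 18 rose and 16 fell (72.3%, beside 55.9%). The list's median log2 fold change was -0.05 and -0.03, beside -0.01 and 0.00 over all genes. Between the hairpins 13 were higher with shRNA2 and 4 were lower (36.2%, beside 35.6% of all genes). The number that rose with shRNA1 was 5 or 4 without nt-shRNA replicate 1 or 2 and 5 or 4 without shRNA1 replicate 1 or 2, and the number that fell was 6 without nt-shRNA replicate 1. Between the hairpins, 7 were lower with shRNA2 when shRNA2 replicate 3 was left out.

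Among the ligands, *Lif* itself was at 6.56 and 5.54 CPM with nt-shRNA, at 6.86, 7.06 and 7.49 with shRNA1, and at 9.53, 12.7 and 8.54 with shRNA2. It rose with shRNA2 (0.76, SE 0.158, adjusted p = 4.4e-04) and not with shRNA1 (0.24, adjusted p = 0.272), and the hairpins differed (0.52, adjusted p = 0.00729), though not past the threshold without shRNA2 replicate 2 (0.34, adjusted p = 0.0658). *Osm*, the oncostatin M ligand, at 0.888 to 2.06 CPM, passed with shRNA1 (-0.71, adjusted p = 0.0315) and not with shRNA2 (-0.22), with no difference between the hairpins past the threshold (0.49, adjusted p = 0.107), and *Ctf1* (-0.22 and -0.18) and *Clcf1* (-0.28 and -0.35) did not pass. Of the other receptor chains, *Il6ra*, for interleukin 6, rose with both hairpins (0.63 and 1.01), from 6.75 and 6.76 CPM to 9.95 to 11.4 and 11.5 to 15.5. *Osmr* rose as well (1.01 and 1.04) but stayed at 1.17 CPM or less. *Il11ra1* fell with both (-0.49 and -0.76), and *Cntfr* fell with shRNA2 (-0.80, adjusted p = 0.0139) and gave -0.21 with shRNA1, with no difference between the hairpins past the threshold (-0.59, adjusted p = 0.0693). Several of these calls were lost when single libraries were left out. Without either nt-shRNA library, *Osmr* did not pass with shRNA1 (adjusted p = 0.151 and 0.143) or shRNA2 (0.0802 and 0.0832), nor did *Osm* with shRNA1 (0.192 and 0.0701). Those 2 calls with shRNA1 were also lost without shRNA1 replicate 1 (*Osm* 0.0747, *Osmr* 0.133) or 2 (0.126 and 0.0696), and that of *Osmr* with shRNA2 without shRNA2 replicate 2 (0.0784). *Il11ra1* with shRNA1 was lost without nt-shRNA replicate 2 (0.252) or shRNA1 replicate 1 (0.105) or 2 (0.0722), and *Cntfr* with shRNA2 without nt-shRNA replicate 1 (0.105) or shRNA2 replicate 2 (0.0692).

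The 4 list genes with the smallest adjusted p with shRNA2 were targets and regulators. *Klf4*, a STAT3 target and pluripotency factor, was at 193 and 177 CPM with nt-shRNA, at 275, 310.5 and 286 with shRNA1, and at 473, 490.3 and 418 with shRNA2. It rose by 0.65 (adjusted p = 3.7e-06) and 1.32 (adjusted p = 1.5e-10), in 3 steps with no overlap. *Pramel7*, a STAT3 target of naive cells, went from 1.05 and 1.15 CPM to 2.99 to 4.24 and 6.93 to 12.7 (1.73 and 3.24). *Pias2*, which encodes a PIAS-family SUMO ligase, rose by 0.50 and 0.82, and *Tyk2*, a JAK-family kinase, fell by 0.35 and 0.74. Of the 15 listed targets, 3 rose and 3 fell with shRNA1, and 8 rose and 3 fell with shRNA2. Of the 6 other STAT genes, 1 rose and 3 fell with shRNA1 and 1 rose and 4 fell with shRNA2, and *Stat5a* fell most (-0.51 and -0.997; named after its values were seen). Of the 11 SOCS and PIAS inhibitors, 2 rose and 2 fell with shRNA1, and 4 rose and 3 fell with shRNA2. Of the 7 kinases and phosphatases, 2 fell with shRNA1, and 2 rose and 4 fell with shRNA2. Over all genes 30.9% were called with shRNA1 and 55.9% with shRNA2, and nothing particular to a role is read from these counts.

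The BMP-ID list held 49 further genes, of which 39 were tested. With shRNA1, 9 rose and 8 fell (43.6%, beside 30.9% of all genes), and with shRNA2, 12 rose and 15 fell (69.2%, beside 55.9%). Its median log2 fold change was 0.10 and 0.05. Between the hairpins 7 were higher with shRNA2 and 8 were lower (38.5%, beside 35.6% of all genes). The number that rose with shRNA1 was 4 without nt-shRNA replicate 2, and the number that fell was 3 or 4 without nt-shRNA replicate 1 or 2 and 5 or 4 without shRNA1 replicate 1 or 2.

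Of the other BMP ligands, *Bmp7* fell with both hairpins, from 36.1 and 37.1 CPM with nt-shRNA to 20.3, 21.3 and 26.5 in the shRNA1 libraries and 15.1, 14.7 and 16.4 in the shRNA2 libraries (-0.69 and -1.25, adjusted p = 5.1e-05 and 1.0e-08). It thus fell where *Bmp4* did not. *Gdf3*, a Nodal-like ligand that can also antagonise BMPs, rose with shRNA2 (0.74, adjusted p = 1.7e-05), from 35.6 and 43.5 CPM to 58.5, 80.3 and 59.7, and not with shRNA1 (0.20, adjusted p = 0.2), and the hairpins differed (0.55, adjusted p = 3.7e-04). *Bmp8a* fell (-0.61) and *Bmp8b* rose (0.68) with shRNA2, *Bmp6* rose with shRNA1 (0.87), and *Gdf7* did not pass (0.27 and 0.05); these 4 genes were at 3.67 CPM or less. The hairpins did not differ past the threshold for *Bmp8a* (-0.13, adjusted p = 0.621), *Bmp8b* (0.32, adjusted p = 0.287) or *Bmp6* (-0.40, adjusted p = 0.275). *Bmp6* lost its call without any one of 4 libraries (adjusted p = 0.415 without nt-shRNA replicate 2, and 0.0663, 0.0761 and 0.103 without shRNA1 replicate 1, 2 or 3), *Bmp8a* without nt-shRNA replicate 1 (0.0889) or shRNA2 replicate 3 (0.0539), and *Bmp8b* without nt-shRNA replicate 2 (0.317) or shRNA2 replicate 1 (0.131). Over the 16 alternatives the value of *Bmp6* with shRNA1 ran from 0.45 to 1.43, and that of *Bmp8b* with shRNA2 from 0.39 to 1.02. *Bmp2* had at most 15 counts in any library and was not tested.

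Of the 11 BMP receptors and co-receptors, 4 rose and 1 fell with shRNA1, and 5 rose and 3 fell with shRNA2, beside 30.9% and 55.9% of all genes called in either direction. *Bmpr1a*, the type I receptor for BMP4, rose with both (0.22 and 0.33), from 66.4 and 71.2 CPM to 72.5 to 84.8 and 83.6 to 89.8, and *Acvr2a*, a type II receptor, rose as well (0.50 and 0.77). *Bmpr1b* had only 2 and 3 counts with nt-shRNA (0.0750 and 0.105 CPM), against 0.499 to 0.987 CPM with shRNA1 and 0.406 to 0.643 with shRNA2. It met the count filter only through the KD libraries and had no value with at least 10 counts in every library. Its calls with both hairpins, included in the counts above, are therefore not read as a change. *Bmpr2* rose with shRNA1 (0.33) and gave 0.16 with shRNA2 (adjusted p = 0.106), with no difference between the hairpins past the threshold (-0.17, adjusted p = 0.0701). *Eng* (0.67) and *Tgfbr3* (0.63), both co-receptors, rose with shRNA2, and the hairpins differed for *Eng* (0.57, adjusted p = 3.1e-05) and *Tgfbr3* (0.74, adjusted p = 2.9e-04). *Acvrl1* fell with both (-0.54 and -0.66), and *Acvr1* (-0.25) and *Acvr2b* (-0.22) fell with shRNA2. *Acvr2b* gave -0.22 with shRNA1 too (adjusted p = 0.0537). Over the 16 alternatives the value with shRNA2 ran from -0.33 to -0.16 for *Acvr1* and from -0.25 to -0.13 for *Acvr2b*. *Rgma* (0.00 and -0.06) and *Rgmb* (0.12 and 0.03) did not pass. With shRNA1, the call of *Bmpr1a* was lost without either nt-shRNA library (adjusted p = 0.263 and 0.0611) or shRNA1 replicate 1 (0.126) or 2 (0.116), that of *Bmpr2* without nt-shRNA replicate 2 (0.058), and that of *Acvrl1* without either nt-shRNA library (0.0994 and 0.143) or shRNA1 replicate 1 (0.15) or 2 (0.104). With shRNA2, *Acvr1* was lost without nt-shRNA replicate 2 (0.277), shRNA1 replicate 2 (0.0532) or shRNA2 replicate 2 or 3 (0.155 and 0.0562), and *Acvr2b* without either nt-shRNA library (0.103 and 0.137) or shRNA2 replicate 1 or 3 (0.072 and 0.0871).

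The 4 list genes with the smallest adjusted p with shRNA2 were *Tbx3*, *Bmp7*, *Twsg1* and *Chrd*. *Tbx3*, a T-box factor of naive pluripotency, was at 172 and 169.8 CPM with nt-shRNA, at 226, 249 and 211 with shRNA1, and at 310.1, 346 and 308 with shRNA2 (0.42 and 0.91, adjusted p = 2.6e-04 and 6.9e-09). The extracellular BMP antagonist *Chrd* fell (-0.48 and -1.09), from 15.5 and 14.9 CPM to 10.5 to 11.5 and 6.14 to 8.72, and *Twsg1*, which modulates BMP binding by chordin, fell as well (-0.35 and -0.74). The call of *Chrd* with shRNA1 was lost without nt-shRNA replicate 1 (adjusted p = 0.0629). Of the 9 tested inhibitors on the list, 3 fell and none of the 9 rose with shRNA1, and 5 fell and 1 rose with shRNA2. That is 3 and 6 of 9 called, near the 30.9% and 55.9% of all genes. The receptor-activated SMADs, named after their values were seen, split as *Smad1* rose (0.40 and 0.52), *Smad5* rose (0.24 and 0.31) and *Smad9* fell (-0.51 and -1.25), while *Smad4* stayed within 99.5 to 106 CPM in all libraries. With shRNA1 the calls of *Smad5* and *Smad9* were lost without either nt-shRNA library (adjusted p = 0.0669 and 0.0631 for *Smad5*, 0.121 and 0.132 for *Smad9*), and that of *Smad9* also without shRNA1 replicate 2 (0.132) or 3 (0.0656). *Id4*, also named after its values were seen, fell with both hairpins (-0.94 and -0.998), from 5.44 and 4.77 CPM to 2.10 to 3.36 and 2.29 to 2.71.

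SMAD7 also acts on the Activin-Nodal-TGFβ arm, so a list of 22 genes of that arm was examined, of which 18 were tested. With shRNA1, 5 rose and 4 fell (50%, beside 30.9% of all genes), and with shRNA2, 9 rose and 6 fell (83.3%, beside 55.9%). Its median log2 fold change was 0.04 and 0.12. Between the hairpins 5 were higher and 4 lower with shRNA2 (50%, beside 35.6% of all genes). The number that rose with shRNA1 was 1 without nt-shRNA replicate 1 and 3 without shRNA1 replicate 2, and the number higher with shRNA2 than with shRNA1 was 3 without shRNA2 replicate 2.

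*Nodal*, the ligand, was at 42.2 and 50.6 CPM with nt-shRNA, at 58.9, 57.0 and 53.8 with shRNA1, and at 92.8, 108 and 82.9 with shRNA2 (0.28 and 1.03, adjusted p = 0.032 and 5.2e-08). Its feedback inhibitors *Lefty1* and *Lefty2* went the other way. Of the 5 tested inhibitors on this list, 1 rose and 3 fell with shRNA1, and 2 rose and 3 fell with shRNA2. Over all genes 30.9% and 55.9% were called in either direction. *Lefty1* was at 8.55 and 19.7 CPM with nt-shRNA, at 4.28, 2.62 and 5.45 with shRNA1, and at 0.930, 0.812 and 1.24 with shRNA2 (-1.75 and -3.83), and *Lefty2* went from 44.5 and 78.3 CPM to 14.96 to 25.6 and 2.56 to 7.85 (-1.56 and -3.74). The controls themselves differed widely for both genes, and the size of their fall moved with the control library used. Without nt-shRNA replicate 1 *Lefty1* was at -2.23 with shRNA1 and -4.30 with shRNA2, and without replicate 2 at -1.03 and -3.10, all past the threshold. For *Lefty2* these values were -1.91 and -4.10, and -1.10 and -3.28. The fall of *Lefty2* with shRNA2 also depended on shRNA2 replicate 3, the library at 7.85 CPM, without which it was -4.38 (adjusted p = 3.2e-11). The call of *Nodal* with shRNA1 was lost without nt-shRNA replicate 1 (0.16, adjusted p = 0.383) or shRNA1 replicate 1 (0.25, adjusted p = 0.105) or 2 (0.28, adjusted p = 0.0806). Of the other ligands, *Inhbb* (1.34) and *Tgfb2* (1.74) rose and *Tgfb1* fell (-0.38) with shRNA2. *Tgfb2* had values in only 15 of the 16 alternatives, with none where at least 10 counts in every library were required. The size of its rise is therefore uncertain. The hairpins differed for *Inhbb* (1.25, adjusted p = 1.8e-04) and *Tgfb2* (1.73, adjusted p = 1.5e-04) and did not pass for *Tgfb1* (-0.14, adjusted p = 0.269), and *Tgfb3* did not pass (0.08 and -0.20). Of the receptors, *Tgfbr1* (0.37 and 0.52) and the Nodal co-receptor *Tdgf1* (0.45 and 0.43) rose with both, and *Acvr1b* (-0.14 and 0.06) and *Tgfbr2* (-0.20 and -0.22) did not pass. Between the hairpins *Acvr1b* was called higher with shRNA2, a call kept in 14 of 16 alternatives (0.16 to 0.23). The call of *Tdgf1* with shRNA1 was lost without nt-shRNA replicate 1 (0.38, adjusted p = 0.0507), and its value with shRNA2 was 0.27 without shRNA2 replicate 3.

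**Figure D4:**
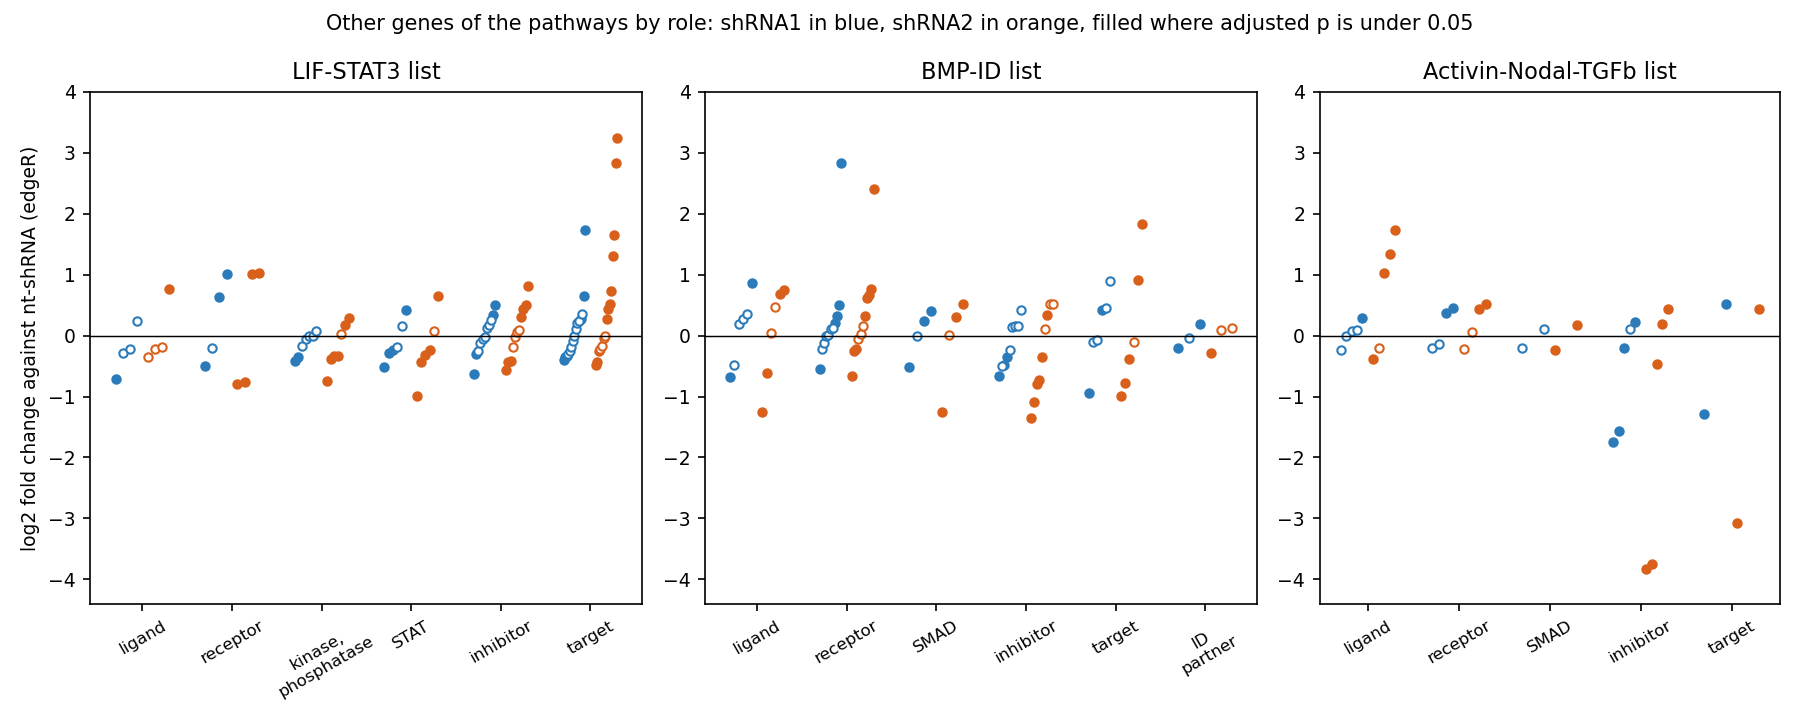
Log2 fold change against nt-shRNA (edgeR) of the tested genes of the 3 lists by role, with shRNA1 in blue and shRNA2 in orange; each point is a gene, and filled points passed an adjusted p of 0.05. Genes lie on both sides of 0 in most roles, from *Lefty1* at -3.83 (-4.30 to -3.10 without single libraries) to *Pramel7* at 3.24 with shRNA2.

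The genes whose pattern over the 8 libraries was most like that of *Socs3*, by Pearson's r of log2 CPM, were *Gm46519* (r = 0.992), *D630033O11Rik* (0.969) and *Gbf1* (0.964). Those most like *Id1* were *4930405N21Rik* (0.970), *Txndc15* (0.954) and *Gm15344* (0.948). They are the highest of 17445 genes over only 8 libraries in 3 groups, and are given as a description with no test.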

How the data were processed

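Poly(A) RNA of 8 libraries (NEBNext Ultra II, paired-end) was measured by RNA-Seq. The authors aligned reads end to end to mm10 with STAR, counted fragments on exons of GENCODE M24 genes with featureCounts 1.6.2 without strand, leaving out multi-mapping and ambiguous fragments, and deposited raw counts and an exon length per gene. Counts are therefore not normalised, and reads of overlapping genes or near-identical copies are lost. Labels call the libraries biological replicates but name no separate cultures, so p-values measure the spread between these samples, which may be partly technical. Replicates of a group differed by more than sampling noise (3.12 to 12.2 chi-square per gene), so none was merged.

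Identifiers were matched to symbols of GENCODE M21 for 55144 of 55385 genes. Counts were tested with edgeR 4.0.16 (R 4.3.3) by the quasi-likelihood test over all 8 libraries, with TMM factors and filterByExpr (minimum count 10), which kept 17445 genes, all 10 described genes among them. Genes with a Benjamini-Hochberg adjusted p below 0.05 were called. SE is the log2 fold change over the square root of F. FPKM used the deposited exon length. An exact permutation test of single values could not go below p = 0.1 with 3 against 2 libraries. DESeq2 1.42.0 and limma-voom 3.58.1 were among 16 alternatives. The code was tested on simulated data.

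The 10 genes, the pathway lists and the tests were chosen with earlier results of these data known. Named besides the 10 were each list's 4 called genes with the smallest adjusted p with shRNA2, its tested ligands and receptors, and the 3 genes most like *Socs3* and *Id1*; 1 gene under this rule is not reported here. Promoters and start sites were from RefSeq.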

Additional observations from a re-analysis of the deposited data

Results flagged for a closer look

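For 8 of the 10 genes the effects of the hairpins differed when the shRNA2 and shRNA1 libraries were tested against each other (edgeR). The log2 difference, shRNA2 minus shRNA1, was -0.23 for *Jak1*, 0.30 for *Stat3*, 0.56 for *Socs3*, 0.55 for *Bmp4*, 0.75 for *Id1*, -1.41 for *Id2*, 2.52 for *Id3* and 0.36 for *Smad7*. Of these, the difference for *Bmp4* was 0.35 and did not pass without shRNA2 replicate 2 (adjusted p = 0.078). In these groups of 2 or 3 libraries, no single library was tested as an outlier. Replicate 2 of shRNA2 was the highest of the 8 libraries for *Stat3*, *Bmp4*, *Id3* and *Smad7* and the lowest for *Jak1* and *Id2*.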

How the results depend on the processing

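Over 16 alternatives, 142 of 160 values of the 10 genes with shRNA1, 148 of 160 with shRNA2 and 156 of 160 between the hairpins kept their direction and their side of the threshold. *Lifr* and *Smad7* with either hairpin, and *Socs3*, *Id2* and *Id3* with shRNA2, did so in all 16. Values that changed sign were not past the threshold: *Socs3* with shRNA1 (0.081 with library size alone, -0.18 to 0.12 when single libraries were left out), *Jak1* with shRNA2 (0.025 with library size alone), and, when single libraries were left out, *Stat3* (-0.063 to 0.15) and *Id1* (-0.033 to 0.31) with shRNA2 and *Lifr* between the hairpins (-0.026 to 0.016). The cause was not tested. Library size alone in place of TMM moved the median of all genes by 0.11 with shRNA1 and 0.09 with shRNA2 and made 70.5% and 58.9% of calls higher, against 44.7% and 48.7%. With it, 4101 genes rose and 1713 fell with shRNA1, 3 of the 10 genes rose, 7 LIF-STAT3 and 4 BMP-ID list genes fell, and *Stat3* did not pass (-0.14, adjusted p = 0.1). DESeq2 called 5 BMP-ID list genes lower with shRNA1. Of the 10 genes, 2 rose with shRNA1 without a filter, with at least 10 counts in every library or with the replicate block, and 3 with only the groups compared. *Bmp4* with shRNA2 did not pass with DESeq2 (adjusted p = 0.058), limma-voom (0.0521) or only the groups compared (0.0637). Leaving out single libraries, with shRNA1 the counts ranged from 1248 to 2649 (all genes higher), 1700 to 3254 (lower), 1 to 3 and 2 to 4 (the 10 genes, higher and lower), 4 to 11 and 6 to 13 (LIF-STAT3 list), 4 to 10 and 3 to 9 (BMP-ID list) and 1 to 5 (Activin-Nodal-TGFβ list, higher). Between the hairpins they were 3 to 7 (LIF-STAT3 list, lower) and 3 to 5 (Activin-Nodal-TGFβ list, higher). A lone nt-shRNA library was then assumed to vary like the others. Same-numbered libraries deviated together only weakly (r = -0.03 to 0.07, 5 of 6 KD libraries closest to their own number in the other hairpin), so the numbers were not taken as pairs; with the replicate block 6018, 10034 and 6518 genes were called, against 5388, 9758 and 6204, and *Id3* with shRNA1 passed (1.21, adjusted p = 2.1e-04). Depth limits the lowest genes, since 3 counts equal 0.105 to 0.148 CPM.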
